A study of Homo sapiens with 28 samples.

Results

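H3K27me3, the trimethylation of lysine 27 of histone H3, was compared between TKO cells expressing the D1240A form of NSD2 and TKO cells for which the labels name no expressed form. The comparison was chosen by the labels and uses 4 of the 28 samples of the study, 2 immunoprecipitates per condition, which the authors had called together into 1 peak list for each condition. The TKO line is labelled as a plasma cell line with the genotype KMS-11 WHSC1(+/-). KMS-11 is a multiple myeloma cell line, WHSC1 is an older name of NSD2, and every group carries this genotype, the controls included. The other groups are TKO cells expressing wild type NSD2 (WT) and TKO cells expressing the F1295A form, whose H3K27me3 lists are given for the same genes. The labels do not give the vector, the promoter or the number of clones behind these cells. The marks were mapped by ChIPmentation, an immunoprecipitation in which a transposase inserts the sequencing adapters on the precipitated chromatin, after fixation with 0.8% formaldehyde. The study asked how mutant NSD2 may alter chromatin marks.

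H3K27me3 is placed by the Polycomb repressive complex PRC2, through its enzymes EZH2 and EZH1, and is bound by the CBX subunits of PRC1. It is known for covering silent developmental genes, such as the HOX clusters, often at promoters rich in CG dinucleotides. NSD2 is the methyltransferase that places dimethylation of lysine 36 of histone H3 (H3K36me2), a modification known to hinder PRC2 on the same histone tail.

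With 1 list per condition there is no replicate error and no test, and every difference here is a description of these lists. The TKO list rests on 41788534 fragments kept after removal of duplicates and the D1240A list on 33219802. Duplicates were 82% and 84% of the sequenced fragments. A peak's height, or pileup, is the number of fragments over its summit. The lowest peak of the TKO list held 11 fragments and that of the D1240A list 10. The scaled pileup, given per 10000000 kept fragments, was 2.63 and 3.01 for these, so that the TKO list admitted lower peaks for its depth. The lists hold peaks past the limit and nothing else, so 0% for a gene does not measure the absence of the mark. In 93 blocks of 1 Mb all 12 lists of the study had peaks over 10% or more of the sequence. These blocks, called shared blocks here, include runs of 15 Mb and 2 Mb on the long arm of chromosome 1 and of 1 Mb and 2 Mb on the long arm of chromosome 12, and results are given with and without them. Many of the other runs hold no tested gene, such as those of 4 Mb on chromosomes 5 and 11.

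The labels were checked against known targets and markers. Of the HOX clusters, only HOXC was widely covered, over 46.5% of its length in TKO, 43.1% in D1240A, 74.5% in WT and 52.7% in F1295A. HOXA was covered over 0.356% in TKO and held no peak in D1240A, HOXB over 4.46% and 1.59%, and HOXD over 0.659% and 0.570%. Over all 17837 protein-coding genes tested, 5259 held an H3K27me3 peak in at least 1 of the 2 lists. Of 142 developmental transcription factor genes measured, 13 held an H3K27me3 peak in TKO and 15 in D1240A. Most of these textbook targets of the mark therefore had no peak in either list, and the lists are called by their antibody label here. Of 10 plasma cell marker genes, 8 had an H3K27ac peak at a gene end in both lists, and SDC1 and CD38 had none in either. None of the 4 myeloid markers measured had one in either list, and of 4 epithelial markers none had one in TKO and EPCAM alone in D1240A. The T and NK cell markers had one at 3 of 6 genes in TKO and 4 of 6 in D1240A, and the B cell markers at 2 of 6 and 1 of 6. Over all 17837 genes tested, 10798 (60.5%) had an H3K27ac peak at a gene end in TKO.

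The promoters of 5 genes that differed between the lists are shown so that peaks at gene starts can be read beside the values of the gene bodies. Each is the window from 250 bases before to 50 bases after a RefSeq gene start on GRCh38.p14, written 5′ to 3′ on the strand of the gene, with CG dinucleotides, which read the same on both strands, in capitals. 1 of 2 RefSeq promoters of S100A16, a calcium binding protein gene, at chr1:153613088-153613387 on the minus strand has 3 CG and lay under a TKO peak over 217 bases and under no D1240A peak. The other, with 8 CG, held no peak in either list. That of NR1I3, the gene of the xenobiotic receptor CAR, at chr1:161238154-161238453 on the minus strand has 3 CG and was covered over 300 bases in TKO and 0 in D1240A. That of the olfactory receptor gene OR2AP1 at chr12:55572218-55572517 on the plus strand has 1 CG and was also covered over 300 bases in TKO and 0 in D1240A. A promoter inside CRIP2, a LIM domain protein gene, at chr14:105475609-105475908 on the plus strand has 14 CG and was covered over 186 bases in TKO and 300 in D1240A. Of its other RefSeq promoters, those with 6 and 50 CG held no peak in either list. That with 3 CG was covered over 62 bases in D1240A and 0 in TKO. The promoter of SYPL2, which encodes a synaptophysin-like protein of muscle, at chr1:109466296-109466595 on the plus strand has 30 CG and held no peak in either list, although the gene body did.
S100A16: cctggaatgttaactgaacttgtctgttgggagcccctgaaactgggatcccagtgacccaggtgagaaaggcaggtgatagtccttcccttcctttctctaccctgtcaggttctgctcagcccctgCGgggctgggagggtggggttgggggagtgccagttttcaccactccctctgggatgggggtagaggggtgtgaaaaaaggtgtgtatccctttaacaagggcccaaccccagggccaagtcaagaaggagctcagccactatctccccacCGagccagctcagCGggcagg
NR1I3: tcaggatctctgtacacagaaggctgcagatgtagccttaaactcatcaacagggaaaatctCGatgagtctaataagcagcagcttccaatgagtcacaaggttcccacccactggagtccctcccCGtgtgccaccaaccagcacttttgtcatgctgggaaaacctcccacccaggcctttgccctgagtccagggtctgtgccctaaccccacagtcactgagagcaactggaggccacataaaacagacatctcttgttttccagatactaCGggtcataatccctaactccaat
OR2AP1: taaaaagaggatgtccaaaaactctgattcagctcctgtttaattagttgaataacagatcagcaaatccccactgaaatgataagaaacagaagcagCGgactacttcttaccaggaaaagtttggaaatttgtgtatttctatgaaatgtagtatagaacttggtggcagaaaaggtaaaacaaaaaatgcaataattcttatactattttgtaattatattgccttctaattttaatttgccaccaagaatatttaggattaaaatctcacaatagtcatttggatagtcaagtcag
CRIP2: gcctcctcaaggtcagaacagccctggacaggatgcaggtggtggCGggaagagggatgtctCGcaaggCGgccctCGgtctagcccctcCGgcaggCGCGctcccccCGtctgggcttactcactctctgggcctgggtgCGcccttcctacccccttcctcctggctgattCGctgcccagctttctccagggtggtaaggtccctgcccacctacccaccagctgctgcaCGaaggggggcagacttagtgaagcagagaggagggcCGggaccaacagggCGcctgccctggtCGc
SYPL2: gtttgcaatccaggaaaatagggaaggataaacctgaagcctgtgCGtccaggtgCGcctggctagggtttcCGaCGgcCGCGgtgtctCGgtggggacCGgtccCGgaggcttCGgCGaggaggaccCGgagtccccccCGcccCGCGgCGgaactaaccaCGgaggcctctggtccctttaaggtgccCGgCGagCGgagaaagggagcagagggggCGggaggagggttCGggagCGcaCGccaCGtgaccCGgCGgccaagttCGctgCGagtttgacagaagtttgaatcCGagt

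Over all 20285 promoters of 14250 matched genes, the median number of CG was 22, and 64.2% held at least 15. The 109 promoters with an H3K27me3 peak in both lists had a median of 5 CG, the 81 with a peak in TKO alone 4, and the 53 with a peak in D1240A alone 6. Promoters with neither had a median of 22. Without the shared blocks there were 45 promoters with a peak in both lists, 50 in TKO alone and 39 in D1240A alone, with medians of 6, 5.5 and 6 CG. S100A16, NR1I3 and OR2AP1 thus belong to the CG-poor promoters that held most of the promoter peaks of both lists. The promoter table has no entry for HOXC8, HOXC9, PMEL, NCKAP1L, MMP19 and TPSD1.

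H3K27me3 peaks covered less of the autosomes in D1240A than in TKO. They spanned 72.4 Mb in TKO, 62.6 Mb in D1240A, 69.0 Mb in WT and 62.8 Mb in F1295A, so that D1240A had 0.864 times the length of TKO. Inside the shared blocks the peaks spanned 49.1 Mb in TKO and 45.4 Mb in D1240A, and outside them 23.3 Mb and 17.2 Mb, a ratio of 0.738. Outside the blocks the ratio lay between 0.617 on chromosome 1 and 0.893 on chromosome 17, and was below 1 on all 22 autosomes. Of 2793 blocks of 1 Mb that are not shared, 2100 were covered less in D1240A, 494 more and 199 equally, and of the 93 shared blocks 90 were covered less and 3 more. The low levels behind these counts matter, since the median block outside was covered over 0.275% in TKO and 0.194% in D1240A.

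The missing length lay in the lowest peaks. Among peaks outside the shared blocks, those with a scaled pileup under 4 covered 8.67 Mb in TKO and 3.64 Mb in D1240A. Those of 4 to 5 covered 4.48 Mb and 3.35 Mb, and those of 5 to 6 covered 3.11 Mb and 2.28 Mb. From 6 upwards the order turned, with 2.78 Mb in TKO and 3.30 Mb in D1240A from 6 to 8, with 1.61 Mb and 1.89 Mb from 8 to 12, and with 2.65 Mb and 2.75 Mb at 12 or more. When both lists were held to a scaled pileup of at least 3.01, the D1240A minimum, 21.85 Mb in TKO and 17.2 Mb in D1240A remained outside the blocks, a ratio of 0.788. When both lists were held to a minimum of 20 fragments at the TKO depth, 11.05 Mb in TKO and 11.2 Mb in D1240A remained there, a ratio of 1.02. WT, with 44812488 kept fragments and a lowest scaled pileup of 2.68 against 2.63 in TKO, had 6.64 Mb in the lowest class. F1295A, with 31097592 kept fragments and a lowest scaled pileup of 3.22, had 1.94 Mb. The part of depth and of the authors' threshold in the length difference was not tested beyond these values.

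**Figure D1:**
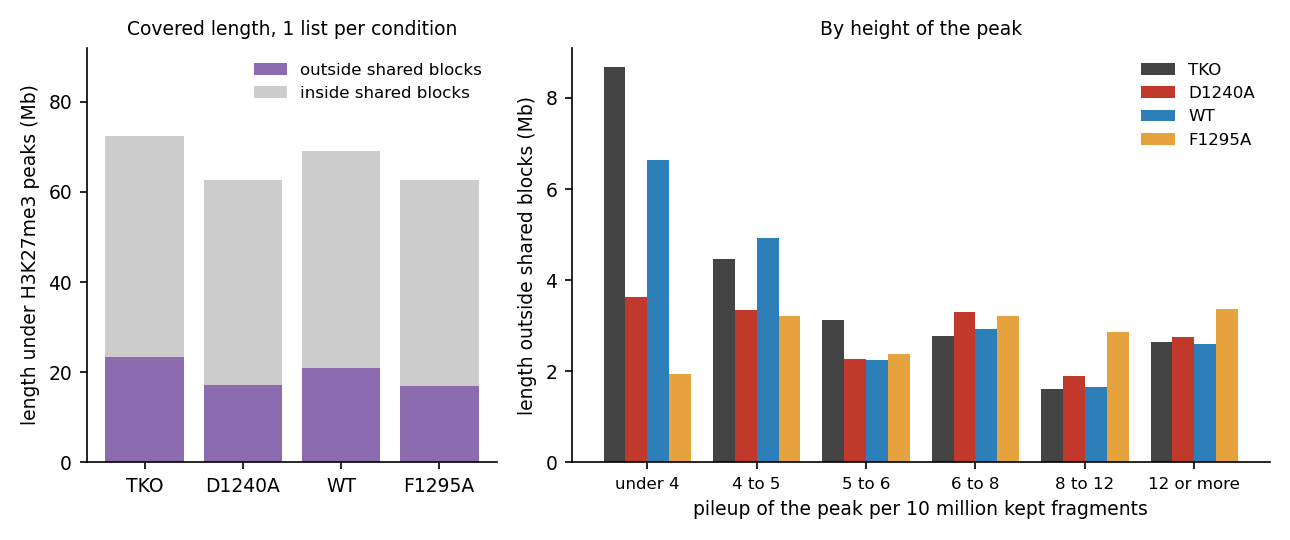
Left, length in Mb under the H3K27me3 peaks of each list, split by the shared blocks. Right, the length outside these blocks by the height of the peak, where TKO exceeds D1240A in the classes with a scaled pileup under 6 (8.67 against 3.64 Mb in the lowest) and D1240A exceeds TKO above (3.30 against 2.78 Mb from 6 to 8); each bar is 1 pooled list, so there is no error bar.

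The lists had more of their bases in common inside the shared blocks than outside them. Inside, 41.9 Mb lay under peaks of both lists, which is 85.3% of the TKO length and 92.3% of the D1240A length. Outside, 10.8 Mb were common, 46.4% of the TKO length and 62.8% of the D1240A length, with 12.5 Mb in TKO alone and 6.40 Mb in D1240A alone. The bases that 1 list alone covered therefore outnumbered the common ones outside the blocks.

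Coverage of single genes was compared as the percent of the gene body under peaks, with peaks less than 1 kb apart joined, for 17837 protein-coding genes of at least 2 kb. At least 25 percentage points less in D1240A was found for 96 genes (0.538% of those tested), and at least 25 points more for 9 genes (0.0505%). Outside the shared blocks, 21 genes (0.121% of 17343) were lower and 4 (0.0231%) higher, and inside them 75 (15.2% of 494) were lower and 5 (1.01%) higher. The median difference was 0 over all genes and over those outside, and -6.70 points over those inside, where 343 genes were covered less and 61 more. At least 50 percent of the body was covered in 236 genes in TKO and 161 in D1240A, of which 75 and 57 lay outside the blocks.

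**Figure D2:**
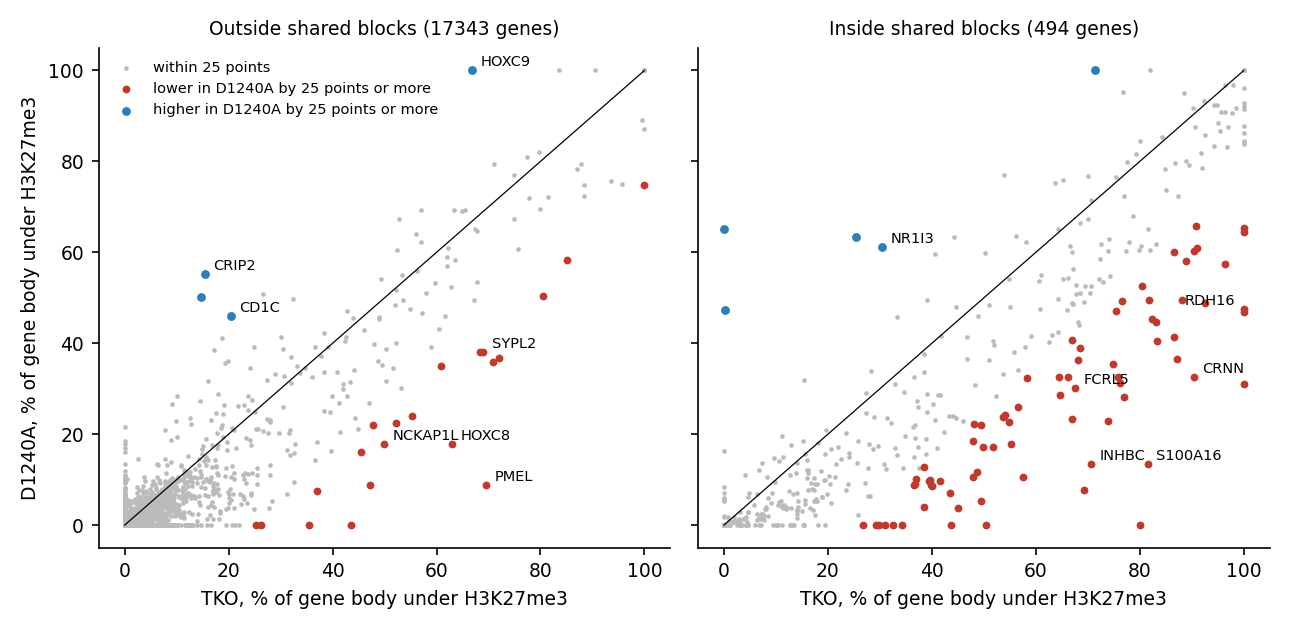
Percent of each gene body under H3K27me3 peaks in TKO (horizontal) and D1240A (vertical), 1 point per gene, with the line of equal values. Outside the shared blocks nearly all genes lie near 0 and 21 are lower and 4 higher by at least 25 points; inside, 75 are lower and 5 higher and the cloud lies under the line.

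At equal covered length the excess of lower genes was gone. The highest peaks of the TKO list were kept until they spanned the length of the D1240A list, which raised the TKO minimum to 16 fragments against 10 in D1240A. Then 25 genes (0.14%) were lower and 34 (0.191%) higher, and with the same done outside the shared blocks 7 (0.0404%) were lower and 11 (0.0634%) higher. Inside the blocks, the equal length over all autosomes gave 19 lower (3.85%) and 15 higher (3.04%). Of the 96 lower genes, 25 were still past the limit, 21 had a difference above 0, and 1, CRNN, was past the limit in the other direction. The 9 higher genes were all still higher, as they had to be, since this setting removes TKO peaks only and no difference can fall. Equal length asks a scaled pileup of 3.83 of TKO peaks and 3.01 of D1240A peaks, where the lowest deposited peaks had 2.63 and 3.01. The minima thus differ in opposite directions, and by more at equal length. With both lists held to a scaled pileup of at least 3.01, 76 genes were lower and 10 higher. With a minimum of 20 fragments at the TKO depth in both lists, 20 genes were lower and 19 higher.

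**Figure D3:**
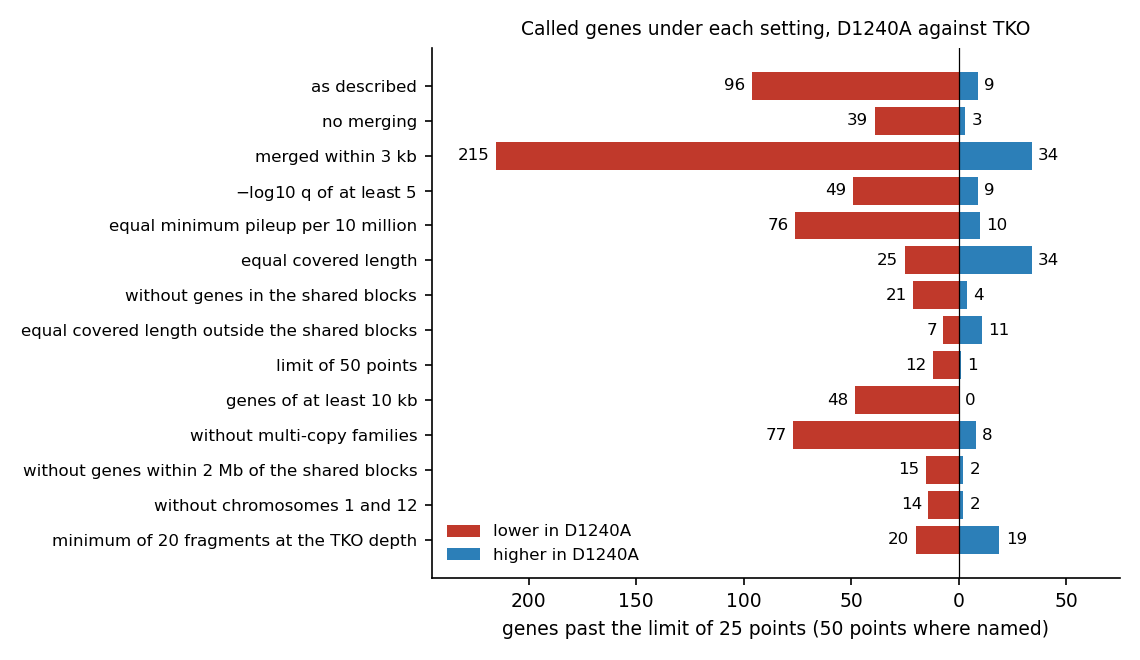
Genes lower (left, red) and higher (right, blue) in D1240A under each setting. The counts run from 96 lower and 9 higher as described to 25 and 34 at equal covered length and 20 and 19 at a minimum of 20 fragments at the TKO depth.

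The height of the highest peak was compared at the called genes too. Among the 96 lower genes the highest peak of the gene held 13 to 39 fragments in TKO, with a median of 22, and 0 to 33 in D1240A, with a median of 17. Of these genes, 13 had no peak in D1240A. In the other 83, which leave out the genes without a D1240A peak, the scaled pileup of the highest peak was 0.996 times that of TKO in the median gene. It was higher in D1240A in 41 of all 96. The highest peak of the 4 higher genes outside the blocks held 13 to 21 fragments in TKO and 14 to 25 in D1240A, and its scaled pileup was higher in D1240A in 4 of 4, with a median ratio of 1.40. Of the 8 higher genes with a peak in both lists it was higher in D1240A in 7, with a median ratio of 1.24.

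Among genes outside the shared blocks, PMEL and NCKAP1L on chromosome 12 and SYPL2, C1orf116 and SLC26A9 on chromosome 1 were covered less in D1240A. PMEL, which encodes the fibril protein of melanosomes (12: 55954105 to 55966709), was covered over 69.5% in TKO, 8.75% in D1240A, 50.04% in WT and 18.9% in F1295A. D1240A was the lowest and TKO the highest of the 4 lists at this gene. In TKO it held 7 peaks of 11 to 22 fragments, the longest of 3858 bases, and in D1240A 3 peaks of 12 to 15 fragments and 288 to 434 bases. Its difference of -60.8 points was -25.8 at equal covered length.

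NCKAP1L, a blood cell subunit of the actin-regulating WAVE complex, was covered over 49.9% in TKO, 17.8% in D1240A, 39.6% in WT and 24.6% in F1295A, and its difference at equal length was -14.6 points. SYPL2 was covered over 69.0% in TKO, 38.0% in D1240A, 84.2% in WT and 50.5% in F1295A, and at equal length the difference was -3.10 points. SLC26A9, an epithelial chloride transporter gene, was covered over 25.2% in TKO by 10 peaks of up to 21 fragments and had no peak in D1240A, with 38.7% in WT and 22.5% in F1295A. These 3 genes were chosen for a D1240A value below that of TKO, and the WT and F1295A values were also above D1240A at each.

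MMP19, a matrix metalloproteinase gene, was covered over 52.3% in TKO, 22.5% in D1240A, 69.7% in WT and 65.0% in F1295A, and C1orf116, an androgen-regulated gene, over 60.8%, 35.0%, 38.2% and 36.7%. Both were higher in D1240A at equal length over all autosomes, by 9.14 and 11.96 points. At equal length outside the shared blocks the difference was -20.98 points for MMP19 and 3.72 for C1orf116. The naming rule leaves out genes under 5 kb. Among these, the heart muscle gene LRRC10, chosen after its values were seen, was covered over 26.2% in TKO by a peak of 13 fragments and held none in D1240A, WT or F1295A.

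Of the 21 lower genes outside the blocks, 13 belong to multi-copy families by their symbols, such as GOLGA6L22, GOLGA6L1, GOLGA6L10, FAM90A24, DEFB106A and OR4F17, where reads can be shared among near-identical copies and the values are uncertain. Over all tested genes outside the blocks, 5.47% belong to such families. GOLGA6L1, a golgin-like gene, was covered over 80.4% in TKO, 50.4% in D1240A, 70.6% in WT and 77.1% in F1295A. OR2AP1 was covered over 43.5% in TKO, 9.89% in WT and held no peak in D1240A or F1295A. The position of the calls was uneven too, since 8 of the 25 called genes outside lay within 2 Mb of a shared block, against 3.29% of the tested genes there.

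The 4 genes outside the blocks with more coverage in D1240A were CRIP2, TPSD1, HOXC9 and CD1C, none of them of a multi-copy family. CRIP2 (14: 105472945 to 105480170) was covered over 15.4% in TKO, 55.3% in D1240A, 50.8% in WT and 19.6% in F1295A. The promoter printed above lay under its first peak, which held 14 fragments over 403 bases in TKO and 15 over 970 bases in D1240A. At equal length the difference was 55.3 points, because no TKO peak of the gene was left. With peaks joined within 3 kb it was -1.90 points, and the call was lost. CD1C, which encodes a lipid antigen presenting molecule, was covered over 20.5% in TKO, 45.9% in D1240A, 42.8% in WT and 26.9% in F1295A, and the difference was 0 with peaks joined within 3 kb. TPSD1, a mast cell tryptase gene of under 5 kb that was chosen after its values were seen, was covered over 14.8%, 50.3%, 20.2% and 9.93%.

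**Figure D4:**
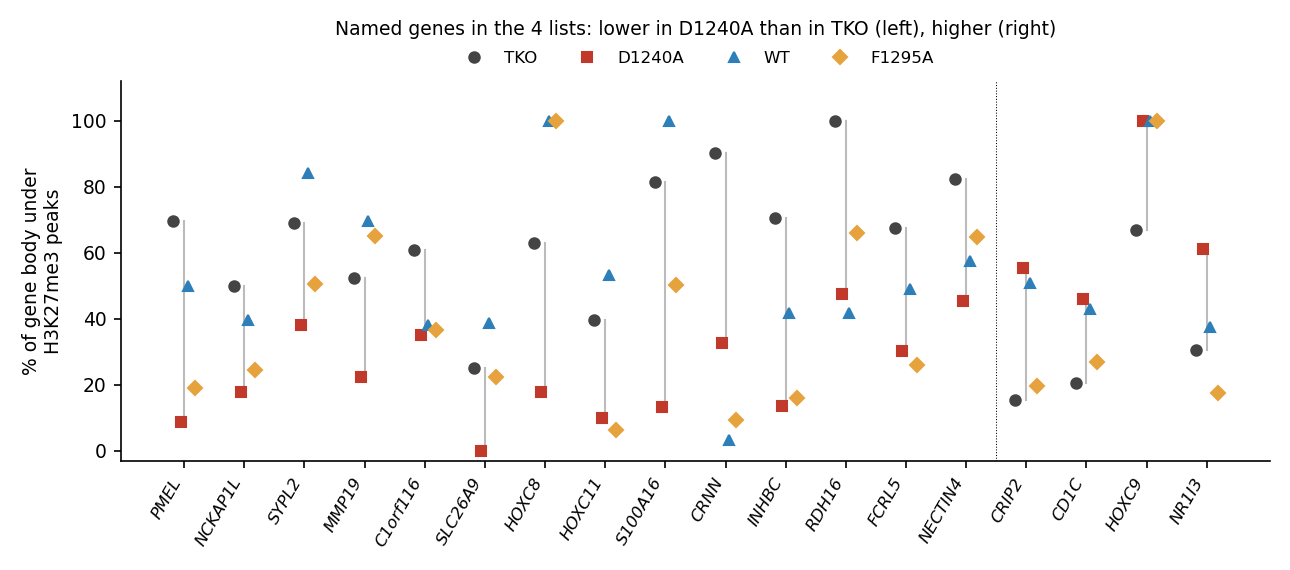
Percent of the gene body under H3K27me3 peaks for 18 named genes in the 4 lists, 1 point per list, with a grey line from TKO to D1240A. The genes left of the dotted line were lower in D1240A than in TKO by at least 25 points and those right of it higher; WT and F1295A lie on both sides of these 2 lists, as at HOXC8, where both are at 100% against 63.0% in TKO and 17.9% in D1240A.

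Of the 105 called genes, 69 lay in one stretch of chromosome 1 from 143955287 to 161285450, most of it shared blocks, with 63 lower and 6 higher. Of the 331 genes measured in this stretch, 267 were covered less in D1240A and 50 more. The median coverage of a gene was 41.2% in TKO, 23.3% in D1240A, 39.2% in WT and 23.1% in F1295A. The median difference was -11.01 points, and 0.472 at equal covered length, where 15 genes were lower by the limit and 18 higher. The families described next were picked after the values of the stretch were seen.

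The S100A genes, which encode small calcium binding proteins of epithelia and leukocytes, are a cluster in this stretch. Of 13 measured, 11 were covered less in D1240A, 8 of them past the limit, and S100A8 and S100A7A were covered more, by 6.81 and 9.55 points. S100A16 had the largest difference, with 81.5% in TKO, 13.4% in D1240A, 100% in WT and 50.3% in F1295A. It held 4 TKO peaks of 14 to 25 fragments and 2 D1240A peaks of 11 and 19, and the scaled pileup of the highest was 5.98 in TKO and 5.72 in D1240A. S100A14 was covered over 100% in TKO, 47.0% in D1240A, 100% in WT and 57.7% in F1295A, and at equal length it was higher in D1240A by 15.1 points. S100A1 was covered over 67.1%, 23.3%, 31.7% and 9.90%. At equal length 3 of the 13 were lower past the limit and 2 were higher. S100A9, a subunit of calprotectin, was covered over 77.4% in TKO and 60.4% in D1240A as deposited, and at equal length the difference was 60.4 points with D1240A the higher.

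Among the nearby epidermal differentiation genes, calls went both ways. CRNN, the cornulin gene of squamous epithelium, was covered over 90.4% in TKO, 32.6% in D1240A, 3.15% in WT and 9.46% in F1295A, with no TKO peak above 15 fragments. At equal length no TKO peak was left and the difference was 32.6 points. SPRR3, a cornified envelope precursor gene, was covered over 100% in TKO, 31.1% in D1240A, 21.4% in WT and 14.1% in F1295A. SPRR5 and SPRR4 had more in D1240A, with 0.244% and 25.4% in TKO, 47.3% and 63.5% in D1240A, 100% and 76.1% in WT and 0% and 69.8% in F1295A. SPRR5 was thus nearly uncovered in TKO and F1295A and fully covered in WT.

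The lymphocyte receptor genes of this stretch are read against its 331 genes, of which 267 were covered less in D1240A and 63 were lower past the limit. All 9 genes of SLAM receptors, cell surface molecules of lymphocyte contacts, had less, and 3 passed the limit, SLAMF6, CD84 and SLAMF1. SLAMF1 was covered over 91.0% in TKO, 60.9% in D1240A, 88.3% in WT and 71.0% in F1295A. SLAMF7, the receptor found on plasma cells, was covered over 100% in TKO and 91.5% in D1240A. All 6 genes of Fc receptor-like proteins, which regulate B cell signalling, had less, and FCRL5, FCRL3 and FCRL1 passed the limit. FCRL5 was covered over 67.6% in TKO, 30.2% in D1240A, 49.1% in WT and 25.9% in F1295A. At equal length none of these 15 genes passed the limit, and 6 of 9 SLAM and 4 of 6 Fc receptor-like genes were covered more in D1240A. Of the 5 CD1 genes, which lie outside the shared blocks, 3 were covered less in D1240A and 2 more, CD1C past the limit, and at equal length all 5 were covered more.

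NR1I3, in the other shared run of this arm, went the opposite way with 30.4% in TKO, 61.1% in D1240A, 37.6% in WT and 17.6% in F1295A. Its highest peak held 43 fragments in TKO and lay over the promoter printed above, and the highest of D1240A held 39 and lay inside the gene. Their scaled pileups were 10.3 and 11.7. More of the body and less of the promoter was therefore covered in D1240A.

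A second group of 16 called genes lay on chromosome 12 between 53973126 and 57959148, with 15 lower and 1 higher. INHBC, a TGF-beta family ligand gene of the liver, was covered over 70.6% in TKO, 13.5% in D1240A, 41.7% in WT and 15.9% in F1295A. RDH16, a retinol dehydrogenase gene, was covered over 100% in TKO, 47.6% in D1240A, 41.7% in WT and 65.9% in F1295A. Their differences at equal length were -13.2 and -30.8 points. APOF, an apolipoprotein gene under 5 kb in this run that was chosen after its values were seen, was covered over 80.0% in TKO, 0% in D1240A, 21.8% in WT and 35.9% in F1295A.

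The HOXC cluster, whose transcription factors set position along the body axis, lies at the edge of this group and had neighbours with differences of opposite sign. HOXC8 was covered over 63.0% in TKO, 17.9% in D1240A and 100% in both WT and F1295A. HOXC11 was covered over 39.6% in TKO, 10.0% in D1240A, 53.2% in WT and 6.31% in F1295A. HOXC9, next to HOXC8, was covered over 66.9% in TKO and 100% in D1240A, WT and F1295A. Its difference of 33.1 points was 2.08 with a -log10 q of at least 5 and 0 with peaks joined within 3 kb, so the call was lost there. At equal length over all autosomes it stayed at 33.1. At equal length outside the shared blocks it was 0.69. That setting leaves out the D1240A peak from 53999663 to 54000547, which touches a block. Of the 9 HOXC genes 5 were covered less in D1240A and 4 more, and HOXC6 differed by -0.251 points. WT had the highest coverage, alone or tied, at each of the 9 HOXC genes. The highest peak of HOXC8 held 21 fragments in TKO and 20 in D1240A, and with a -log10 q of at least 5 in both lists its difference was 3.86 points.

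Across the HOX list of 38 measured genes, 2 were lower and 1 higher, and at equal length none was lower and 1, HOXC9, higher. Over all genes 0.538% were lower and 0.0505% higher, and at equal length 0.14% and 0.191%. At equal length outside the blocks 0 were higher, where the HOXC9 peak that touches a block is left out. Of 97 cell adhesion genes measured, the group named in the title of the series, NECTIN4 alone passed the limit. This adhesion molecule of epithelia was covered over 82.4% in TKO, 45.2% in D1240A, 57.5% in WT and 64.7% in F1295A, and its difference at equal length was -5.45 points. Of the adhesion genes 43 were covered less in D1240A and 12 more, with a median difference of 0. Over all 17837 genes, 3692 were covered less and 1548 more. FCRL5 was the only 1 of 24 plasma cell markers past the limit, and FCRL3 and FCRL1 were the 2 of 27 B cell markers. These genes, NECTIN4 and CD160 all lie in the shared blocks, where 15.2% of genes were lower, and outside the blocks no gene of these lists was. At equal length none of them passed the limit. CD160, a receptor gene of NK and T lymphocytes, was the only 1 of 29 T and NK cell markers, with 76.5% in TKO, 49.4% in D1240A, 43.1% in WT and 31.6% in F1295A, and at equal length it was higher in D1240A by 8.36 points. The median difference of each of the 17 lists was 0, as over all genes. The other 12 lists, developmental transcription factors, Polycomb-silenced ligands and Polycomb complex genes among them, held no gene past the limit in the deposited lists.

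Genes next to the limit on either side had like values. Just inside on the lower side were MTMR11, a myotubularin-related gene, with 90.9% in TKO and 65.8% in D1240A, OR4F17 with 100% and 74.9%, and SLC26A9. Just outside were ARNT, the partner of hypoxia-inducible factors, with 37.5% and 12.5%, the small GTPase gene RAB7B with 31.3% and 6.85%, and the SLAM receptor gene LY9 with 68.3% and 44.0%. On the higher side NR1I3, CD1C and LOC124904581 were just inside, the last with 71.4% and 100%. FMOD, a collagen-binding proteoglycan gene, with 26.5% and 50.8%, the hair follicle gene TCHH with 53.9% and 76.9%, and LOC124903544 with 18.7% and 41.2% were just outside.

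Where the lists had overlapping peaks, the D1240A peaks were slightly higher for their depth. Of the TKO peaks 53.7% overlapped a D1240A peak, and of the D1240A peaks 71.7% overlapped a TKO peak. Without the shared blocks the shares were 40.7% and 58.6%. The 30303 pairs of mutually best overlapping peaks had a median ratio of scaled pileup, D1240A over TKO, of 1.08, with the middle 50 percent from 0.927 to 1.26. The ratio was above 1 in 62.9% of pairs. The median was 1.09 outside the blocks and 1.06 inside, and 1.03 when fold enrichment over each list's own background was used in place of the scaled pileup. The paired peaks were narrower in D1240A, by a median width ratio of 0.937. Lone peaks were low, with a median of 14 fragments in TKO and 13 in D1240A.

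**Figure D5:**
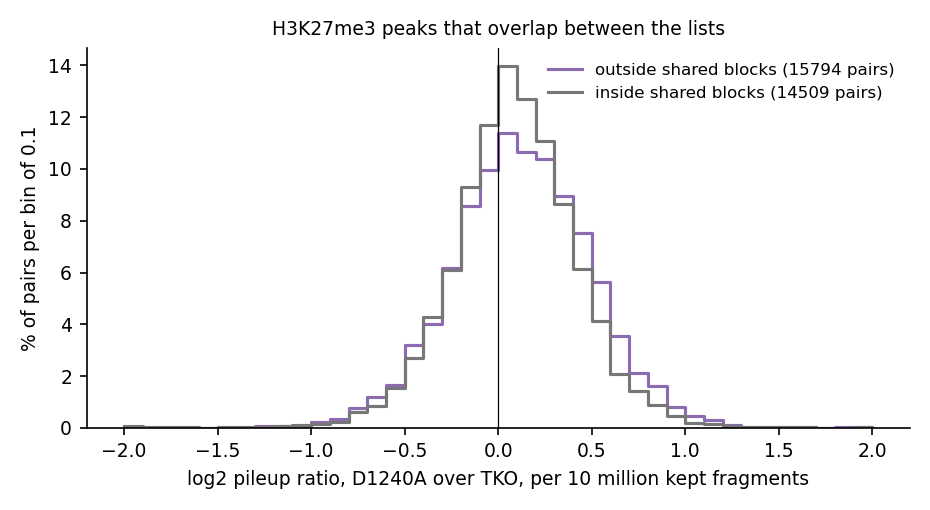
Distribution of the log2 ratio of scaled pileups, D1240A over TKO, in bins of 0.1 over the overlapping peak pairs outside and inside the shared blocks. Both curves peak just above 0, with median ratios of 1.09 and 1.06 on the linear scale; pairs beyond the ends are in the outermost bins.

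A few pairs with at least 30 fragments in one list stood far from this median. The peak nearest SPDYE9, of a multi-copy family on chromosome 7, had 139 fragments in TKO and 23 in D1240A, a ratio of 0.208 with a 95% interval of 0.128 to 0.325 that covers counting error only. Inside SMYD3, a methyltransferase gene, and PRPF6, a splicing factor gene, 51 fragments in TKO stood against 15 and 16 in D1240A, ratios of 0.370 (0.193 to 0.668) and 0.395 (0.210 to 0.703). The pairs near PEX26 and KBTBD8 had ratios of 0.374 and 0.304. At the other end, a peak inside ATP10A, a lipid flippase gene next to the imprinted region of chromosome 15, had 21 fragments in TKO and 62 in D1240A, a ratio of 3.71 (2.23 to 6.42). The highest ratio, 11.2 (8.67 to 14.6), belonged to a peak of 68 fragments in TKO and 603 in D1240A on chromosome 17, 1725.5 kb from its nearest gene WSB1. The pairs nearest TUBA3C, POTEM and LOC124900661 had ratios of 4.66, 4.50 and 3.83, and lay 1151.8, 823.2 and 27.1 kb from these genes. The TKO peaks of the first 2 started at 18021036 on chromosome 13 and 18143347 on chromosome 14. Both lay just past shared blocks that end at 18000000 and hold no tested gene. POTEM and LOC124900661 are of multi-copy families by symbol. Whether repeated sequence shares reads at these sites and at that of chromosome 17 was not tested.

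The other marks, which the selection did not use, were compared at the same genes and bases. The median H3K36me2 coverage of the 96 lower genes was 52.3% in TKO and 47.6% in D1240A. H3K36me2 was lower by 25 points or more at 5 of them and higher at 3, against 158 of all 17837 genes lower (0.886%) and 17 higher (0.0953%). Of the 75 that lie in the shared blocks, H3K36me2 was lower at 3 (4%) and higher at 3, against 41 lower (8.3%) and 8 higher (1.62%) of all 494 genes there. Of the 21 outside the blocks it was lower at 2 and higher at 0, against 117 lower (0.675%) and 9 higher (0.0519%) of all 17343. H3K36me2 coverage of PMEL was 24.6% in TKO and 4.75% in D1240A, while that of S100A16 was 0% and 18.6% and that of HOXC8 was 0% in both. An H3K27ac peak at a gene end was gained at 5 of the 96 lower genes and lost at 4, against 332 gained (1.86%) and 165 lost (0.925%) over all genes. S100A16, RDH16 and HOXC8 were among those with such a peak in D1240A and none in TKO.

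Bases under H3K27me3 in both lists were mostly also under H3K36me2. Outside the shared blocks, 61.9% of the common bases lay under H3K36me2 peaks in TKO and 63.3% in D1240A, where H3K36me2 covered 1.76% and 1.19% of the whole length. Of the bases that H3K27me3 covered in TKO alone 19.8% lay under H3K36me2 in TKO and 20.3% in D1240A, and of those in D1240A alone 17.2% and 17.6%. The H3K36me2 share of the bases of TKO alone thus differed by under 1 point between the lists. H3K27ac peaks lay over 34.0% of the common bases in TKO and 30.1% in D1240A, over 5.64% and 5.09% of the bases of TKO alone, and over 2.74% of the whole length outside the blocks in both lists. The overlap of marks that rarely share a histone tail was not tested further, and the inputs are not analysed here.

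Set against the same TKO list, F1295A also had more lower than higher genes, and WT did not. WT against TKO gave 37 lower genes (0.207%) and 53 higher (0.297%), and F1295A against TKO 105 lower (0.589%) and 17 higher (0.0953%). D1240A against WT gave 119 lower (0.667%) and 7 higher (0.0392%). These comparisons share lists, so their calls are not independent. They also differ in depth. F1295A was a shallow list like D1240A, with 31097592 kept fragments against 33219802, and its lowest scaled pileup was 3.22 against 3.01. WT was closer to TKO, with 44812488 kept fragments against 41788534 and a lowest scaled pileup of 2.68 against 2.63. No counts at equal covered length are given for WT or F1295A, and the part of depth in these counts was not tested. At the 96 lower genes the median coverage was 63.8% in TKO, 23.03% in D1240A, 47.0% in WT and 31.8% in F1295A. At the 9 higher genes it was 20.5% in TKO, 61.1% in D1240A, 50.8% in WT and 19.6% in F1295A. The values of TKO and D1240A in these medians are those by which the genes were chosen.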

How the data were processed

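ChIPmentation peak lists of H3K27me3 in TKO and D1240A cells were compared on chromosomes 1 to 22, with the WT and F1295A lists and the H3K36me2 and H3K27ac lists for the same genes. The submitters' processing notes give GRCh38 as the build and list MACS2 2.2.7.1, Bowtie2 2.4.5, FastQC 0.11.4 and Trimmomatic 0.36. Per the file headers, the authors called each list in 1 MACS run on both replicates, on paired-end fragments, at a q value of 0.05 and with duplicates removed, without broad calling, a local background or a control. The deposited pileup is a signal, the number of fragments over the summit, not scaled for depth by the authors. The deposited fold enrichment is a ratio to 1 background per list, and the -log10 q values were made by the authors from the same background. Kept fragments ranged from 31097592 to 44812488 for the H3K27me3 lists. The 4 inputs were not used.

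Gene extents came from RefSeq on GRCh38 patch 14, without 153 protein-coding entries that carry scaffold coordinates, and H3K27ac was read within 1 kb of a gene's start or end. Pileups were divided by kept fragments and given per 10000000 (scaled pileup). Peaks were paired when each shared most bases with the other. Pileup ratios carry exact binomial intervals at 95% that cover counting error only. Genes were named by a rule: outside the blocks the 10 lower and 10 higher genes with the largest difference, of at least 5 kb and of no multi-copy family by symbol, inside them 4 and 4, at most 4 of each gene list in each direction, the 3 on either side of the limit, the 5 pairs of highest and of lowest ratio with at least 30 fragments, and the 5 highest lone peaks per list. The rule could name fewer. The comparison, its members, the 17 gene lists and the limits were chosen with earlier results of these data known. With 1 pooled list per condition no test was possible. Alternatives were other merging, thresholds, gene lengths and limits, equal covered length, and leaving out blocks or gene families. The steps were tested on simulated data with planted peaks. The versions were matplotlib 3.10.9, SciPy 1.17.1, pandas 2.3.3, numpy 2.4.6 and Python 3.11.15.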

Additional observations from a re-analysis of the deposited data

How the results depend on the processing

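The counts of 96 lower and 9 higher genes became 39 and 3 without merging, 215 and 34 with peaks joined within 3 kb, 49 and 9 at a -log10 q of at least 5, 76 and 10 at an equal minimum scaled pileup, 25 and 34 at equal covered length, 21 and 4 without the shared blocks, 7 and 11 at equal length outside them, 12 and 1 at a limit of 50 points, 48 and 0 for genes of at least 10 kb, and 77 and 8 without multi-copy families. Settings added after seeing the data gave 15 and 2 without genes within 2 Mb of the blocks, 14 and 2 without chromosomes 1 and 12, and 20 and 19 at a minimum of 20 fragments at the TKO depth. These are totals under each setting, not parts of the 96 and 9. Of the 96 lower genes 33 were still lower without merging, 55 with merging within 3 kb, 29 at the stricter q and 14 at 20 fragments. The covered length ratio of 0.864 became 0.913 at a -log10 q of at least 5, 0.738 without the shared blocks and 0.975 at 20 fragments, and stayed within 0.854 to 0.885 with merging or an equal minimum pileup. The median pileup ratio of 1.08 kept its direction in every alternative run. The difference of D1240A minus TKO changed sign with merging within 3 kb for SYPL2 (13.9) and CRIP2 (-1.90), at a -log10 q of at least 5 for LOC124904581 (-13.6), HOXC8 (3.86) and FCRL3 (4.69), and at equal covered length for MMP19 (9.14), C1orf116 (11.96, and 3.72 outside the blocks), CRNN (32.6), FCRL3 (1.03) and CD160 (8.36). Among the genes just outside the limit it changed sign for FMOD (-31.6) within 3 kb, for TCHH (-18.8), RAB7B (5.29) and LOC124903544 (-2.93, also without merging) at the stricter q, and for ARNT (2.15) and RAB7B (0.21) at equal length. The cause was not tested. No paired analysis was possible because the authors pooled both replicates of a condition into 1 list, and for the same reason no replicate could be left out. Depth limits the calls: 28.4% of TKO peaks and 27.0% of D1240A peaks lay within 3 fragments of the list minimum, and no interval covers the spread between cultures.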

Other observations

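Some peaks were high in one list and had no overlapping peak in the other. In TKO the highest such peaks held 127 fragments 80.9 kb from DDIT4L, 96 fragments 1.7 kb from CDON, a hedgehog co-receptor gene, 83 near FOXI2, 81 near OGFRL1 and 80 inside RBPMS, an RNA binding protein gene. They were 233 to 346 bases long, and the nearest D1240A peak lay 57485 to 1109719 bases away. The interval of the count near DDIT4L was 106 to 151, for counting error only. In D1240A the highest lone peaks held 96 fragments near ZNF707, 47 inside ALLC, 47 near TPTE in a shared block, 42 inside PPFIA1, which encodes liprin-alpha-1, and 40 inside OR1F1. At OR1F1, at TPTE and near ZNF707 a TKO peak lay 70, 120 and 2622 bases away. At least 30 fragments were found in 142 lone peaks of TKO and 43 of D1240A.

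Outside the shared blocks the bins of 1 Mb with the largest loss of coverage were next to the blocks of chromosomes 1 and 12. The bin of chromosome 1 from 159000001 to 160000000 was covered over 26.0% in TKO and 16.7% in D1240A, and that of chromosome 12 from 55000001 to 56000000, which holds PMEL and MMP19, over 15.9% and 8.34%. The largest gain was on chromosome 17 from 24000001 to 25000000, with 31.1% in TKO and 31.9% in D1240A. This bin was covered far above the median bin outside the blocks, 0.275% in TKO, and repeated sequence there was not examined.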
